A study of Mus musculus with 69 samples.

Results

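Bhlhe41, Ptgds and C1qtnf3 are 3 of the 55367 gene symbols in a table of bulk RNA sequencing counts from mosaic gastruloids, of which 42280 had at least 1 count. They were chosen by their large changes, at 96 to 144 h, in wild-type cells that grew beside p53KO cells against the same cells beside wild-type (WT) cells, so their values in that contrast are given here as a description, without a test. All tests of the 3 genes below use populations or time points that this choice did not use. At 96 to 144 h the tested populations came from the same gastruloids as those of the choice. Those tests are thus not independent of it.

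All cells were mouse embryonic stem cells of the line E14Tg2A or came from them. Clone F (WT-mCherry) carries EF1α-driven H2B-mCherry, clone W (WT-emiRFP) carries CAG-driven H2B-emiRFP, and clone K (p53KO-emiRFP) is a subclone of W with a homozygous frameshift in Trp53. The p53KO genotype thus rests on 1 clone, as does each label of the WT cells. Gastruloids, aggregates that break symmetry and form derivatives of the germ layers, were seeded from 150 cells of F with 150 cells of W, or from 150 cells of F with 25 cells of K, and received a pulse of a Wnt activator from 48 to 72 h. The cells were sorted from pooled gastruloids at 48, 72, 96, 120 and 144 h into WT-mCherry beside WT (WF), WT-emiRFP (WW), WT-mCherry beside p53KO (KF) and p53KO-emiRFP (KK). The clones at 0 h and the 4 populations at 5 time points make 23 groups of 3 replicates, 69 libraries. The purity of the sorted cells was not checked after sorting, and in bulk RNA fewer cells of a type and less RNA per cell cannot be told apart.

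Bhlhe41 (also called Dec2) encodes a basic helix-loop-helix repressor that binds E-boxes and belongs to the negative arm of the circadian clock, together with its close relative Bhlhe40. Ptgds encodes the lipocalin-type prostaglandin D synthase, a secreted enzyme that turns prostaglandin H2 into prostaglandin D2 and, as a lipocalin, also carries small lipophilic molecules. C1qtnf3 (also called CTRP3) encodes a secreted protein with a collagen-like stem and a C1q-like head, a relative of adiponectin.

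On GRCm38, the build of the deposited counts, Bhlhe41 lies on the minus strand at chr6:145858243-145865558, Ptgds on the minus strand at chr2:25466709-25470046 and C1qtnf3 on the plus strand at chr15:10952332-10980150. Merged exons measured 6720 bases for Bhlhe41, 1649 for Ptgds and 2557 for C1qtnf3. Bhlhe41 is overlapped by the antisense gene Gm43909, which had 0 to 23 counts in a library and at most 5% of the count of Bhlhe41. No other annotated gene overlaps Ptgds or C1qtnf3. A sequence before the RefSeq start of each gene is shown to give the letters near the starts of the 3 genes. For Bhlhe41 and Ptgds that start lies inside the span given above. The stretch of Ptgds is within the gene but in no annotated exon, and that of Bhlhe41 ends directly before the span, so its CACGTG is much nearer to that end of the span than to the RefSeq start. Each is the part outside all annotated exons of the RefSeq promoter window (250 bases before to 50 bases after the start, GRCm38.p6), written 5′ to 3′ on the strand of the gene, with capitals for CACGTG or TATAAA.
Bhlhe41 chr6:145865559-145865670: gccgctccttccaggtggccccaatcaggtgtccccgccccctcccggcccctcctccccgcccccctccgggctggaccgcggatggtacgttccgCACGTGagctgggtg
Ptgds chr2:25469843-25469999: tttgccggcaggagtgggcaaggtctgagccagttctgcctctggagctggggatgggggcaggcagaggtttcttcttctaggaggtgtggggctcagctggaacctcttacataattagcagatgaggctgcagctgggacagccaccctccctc
C1qtnf3 chr15:10952082-10952331: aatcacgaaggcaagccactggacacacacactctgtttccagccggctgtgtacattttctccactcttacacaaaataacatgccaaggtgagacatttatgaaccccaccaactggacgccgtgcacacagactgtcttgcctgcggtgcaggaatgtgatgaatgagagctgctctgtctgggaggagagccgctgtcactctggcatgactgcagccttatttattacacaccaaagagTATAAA
All 3 genes were found in the promoter table. Both strands of the whole window of 300 bases were searched for the E-box CACGTG, for TATAAA and for the p53 half-site. CACGTG occurred once, in Bhlhe41, 153 to 148 bases before the start, and 7.15% of the 32851 promoters in the table hold it. TATAAA occurred once, in C1qtnf3, directly before the annotated start, and 13.6% of promoters hold it. The p53 half-site was in none of the 3 windows and in 8.36% of all promoters. These are matches of letters in a window, not sites of binding.

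The libraries held 26722541 to 72981570 counts (median 53098728). Normalized counts are counts divided by median-of-ratios size factors over all libraries. The labels matched the targeted gene, since Trp53 had 1506 to 2589 normalized counts in the libraries of K and KK and 13902 to 27510.5 in all other libraries. Naive pluripotency markers summed to 179022 to 222579 normalized counts in the clones at 0 h and to 11535 to 96393 in the populations at 96 to 144 h. Within a time point, populations were compared in 1 edgeR quasi-likelihood fit, changes between time points in 1 fit of all 69 libraries, and adjusted p means Benjamini-Hochberg over all genes of the fit, with a threshold of 0.05.

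**Figure D1:**
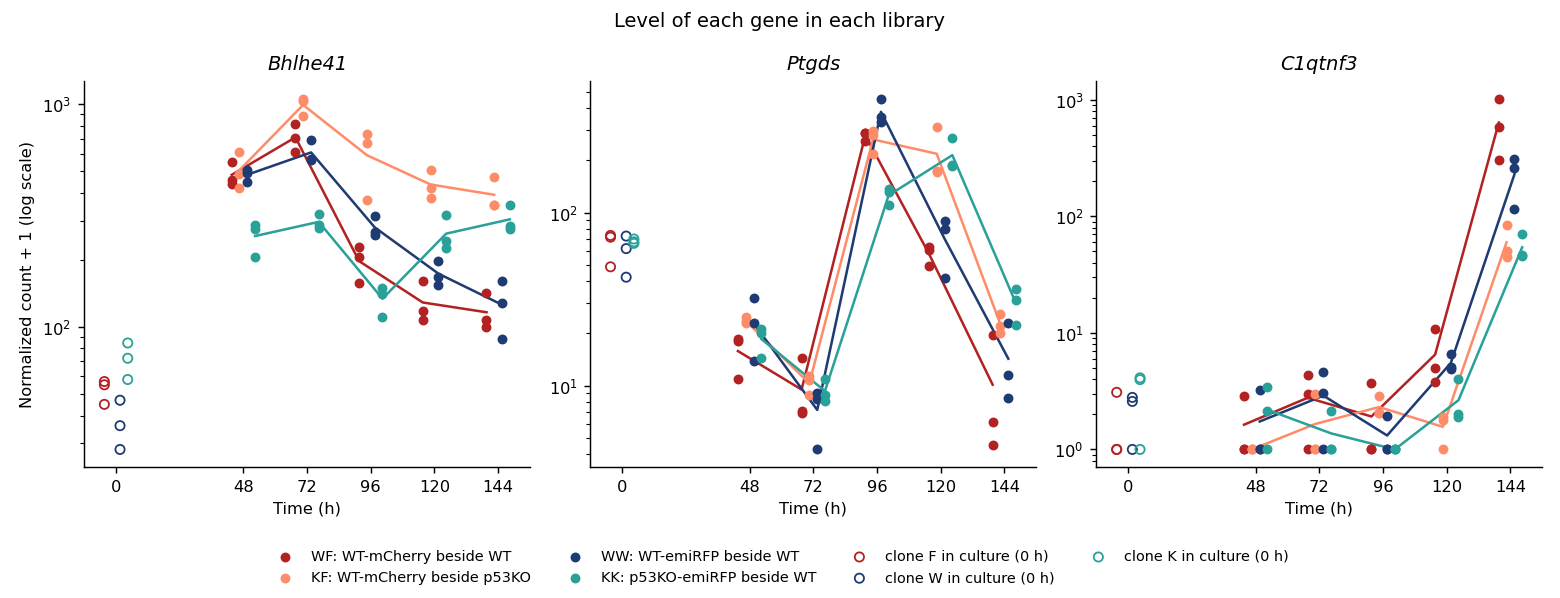
Normalized count plus 1 (log scale) of Bhlhe41, Ptgds and C1qtnf3 against time (h), where each point is 1 library and lines join the means of 3. Bhlhe41 was highest in KF at 72 h and stayed above 350 in KF to 144 h. The mean of Ptgds was highest at 96 h in WF, KF and WW and at 120 h in KK. C1qtnf3 was above 12 counts in a library only at 144 h.

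Bhlhe41 was low in all clones at 0 h, higher by 48 h and highest at 72 h in WF, KF and WW. From 96 h on it was low in WF and, in means, at least 3.00 times as high in KF. In p53KO-emiRFP cells it was lower than in WT-emiRFP cells from 48 to 96 h and higher at 0 h and from 120 h.

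At 96 h Bhlhe41 had 731, 667 and 370.1 normalized counts in KF and 228, 205 and 157 in WF. At 120 h the values were 379.7, 507 and 418 in KF and 117, 160.1 and 106 in WF. At 144 h they were 472, 350.2 and 350.2 in KF and 141, 106 and 98.9 in WF. Every KF library was above every WF library at each of these times. The KF over WF ratio of means was 3.00, 3.41 and 3.39 at 96, 120 and 144 h, and the fitted log2 fold changes were 1.59 ± 0.22, 1.77 ± 0.18 and 1.76 ± 0.21 (SE, n = 3 against 3). The smallest ratio of same-numbered libraries was 2.36, at 96 h, and the largest 3.95, at 120 h. Over all genes 3.93% of 18343, 5.95% of 18860 and 25.5% of 19431 passed the threshold in that contrast at 96, 120 and 144 h, and nothing is read from these shares for the 3 genes, since the contrast chose them.

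The same contrast at 48 and 72 h was not used for the choice. At 48 h Bhlhe41 had 504 ± 96.6 normalized counts in KF and 481 ± 61.7 in WF (mean ± SD, n = 3), a log2 difference of 0.06 ± 0.13 (95% interval -0.20 to 0.33, adjusted p = 0.96), where 0.0735% of all genes were called. At 72 h it had 1058, 1035 and 882 in KF and 700.5, 609 and 816 in WF. The groups did not overlap, and the log2 difference was 0.48 ± 0.11, with an adjusted p of 0.077 in the fit without pairing and 0.029 with the replicate number as a block. At 72 h 0.559% of genes were called without the block and 2.27% with it. Bhlhe41 was higher in KF in 3 of 3 same-numbered pairs at 72 h, by 1.08 to 1.70 times. The adjusted p was also under the threshold in DESeq2 (0.0077), with no count filter (0.00018) and without replicate 3 (0.020). It was over the threshold with TMM (0.078), with only KF and WF in the fit (0.105), with all 69 libraries in 1 fit (0.37) and without replicate 1 or 2 (0.80 and 0.81).

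The WT populations were compared with each other at the early times. For Bhlhe41, WW minus WF was -0.48 ± 0.25 at 0 h (clone W against clone F, adjusted p = 0.24, 11.1% of genes called), 0.00 ± 0.14 at 48 h (adjusted p = 0.999, 8.89% called) and -0.23 ± 0.12 at 72 h (adjusted p = 0.27, 7.64% called), so 0 of the 3 differences passed. At 96 h WW had 315, 265 and 256 normalized counts, above all 3 WF libraries. At 120 and 144 h the 2 populations overlapped, with 172 ± 22 in WW against 128 ± 28.6 in WF and 125 ± 36.4 against 115 ± 22.3.

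In the p53KO-emiRFP cells themselves, Bhlhe41 passed the test against WT-emiRFP cells at all 6 time points. At 0 h it was higher in K, with 57.1, 71.3 and 83.7 normalized counts against 45.9, 27.2 and 35 in W (log2 0.95 ± 0.24, adjusted p = 0.031), where 6.13% of genes were called. This call was lost without replicate 2 or 3 (adjusted p = 0.49 and 0.28). It was lower in KK at 48 h (255 ± 43.2 against 481 ± 30, log2 -0.92 ± 0.14, adjusted p = 0.00029, 22.0% called) and at 72 h (295 ± 23.6 against 606 ± 73.9, log2 -1.03 ± 0.12, adjusted p = 1.7e-05, 29.1% called). At 96 h KK had 139.9, 149 and 109.5 and WW 315, 265 and 256 (log2 -1.07 ± 0.23, adjusted p = 0.0033, 23.3% called). At 120 h the order was the opposite, with 225, 318 and 241 in KK and 154, 197 and 166 in WW (log2 0.60 ± 0.18, adjusted p = 0.012, 51.0% called). At 144 h KK had 352, 274 and 283 and WW 159.5, 128 and 86.9 (log2 1.29 ± 0.21, adjusted p = 9.8e-05, 65.3% called). In each of these 6 comparisons the 2 groups did not overlap. Without replicate 1 the adjusted p was 0.067 at 96 h and 0.066 at 120 h, and without replicate 3 it was 0.056 at 120 h.

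The changes over time were tested within WW and within KK, and the difference between their changes only for the steps from 72 h on. From 0 to 48 h Bhlhe41 rose by 3.71 ± 0.24 on the log2 scale in WW (adjusted p = 1.7e-20, 60.3% of 21132 genes called) and by 1.86 ± 0.23 in KK (adjusted p = 2.8e-10, 59.5% called). From 48 to 72 h neither change passed, at 0.33 ± 0.18 in WW (adjusted p = 0.13, 49.6% called) and 0.21 ± 0.20 in KK (adjusted p = 0.39, 46.4% called). From 72 to 96 h it fell by about the same amount in both, -1.12 ± 0.19 in WW (adjusted p = 1.6e-06, 41.5% called) and -1.16 ± 0.20 in KK (adjusted p = 3.4e-06, 44.5% called), and the difference of these changes was -0.04 ± 0.27 (95% interval -0.57 to 0.50, adjusted p = 0.97, 11.0% called).
From 96 to 120 h it fell further in WW, by 0.69 ± 0.20 (adjusted p = 0.0034, 42.3% called; 0.074 without replicate 1), and rose in KK, by 0.98 ± 0.20 (adjusted p = 8.8e-05, 34.9% called). The difference of the 2 changes was 1.68 ± 0.28 (adjusted p = 4.1e-06), where 30.8% of genes were called. From 120 to 144 h the changes were -0.47 ± 0.21 in WW (adjusted p = 0.079, 33.8% called) and 0.21 ± 0.19 in KK (adjusted p = 0.49, 22.7% called), with a difference of 0.69 ± 0.29 (adjusted p = 0.092, 16.9% called).

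**Figure D2:**
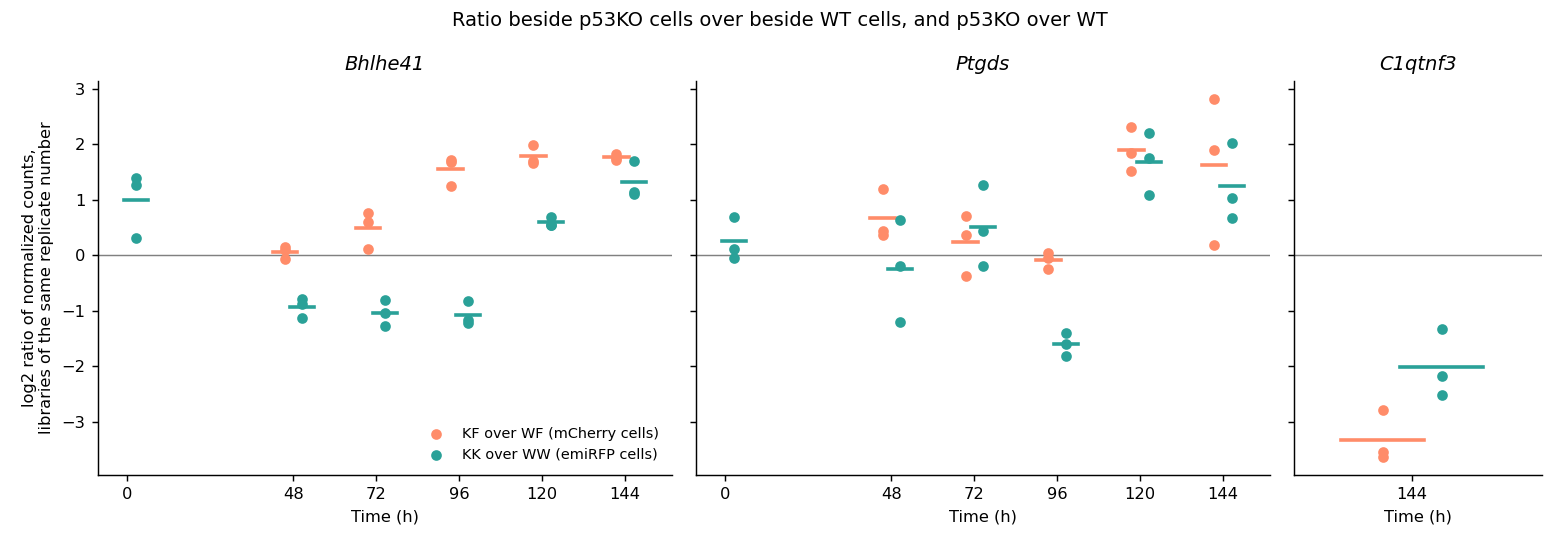
Log2 ratio of normalized counts between libraries of the same replicate number against time (h), KF over WF in orange and KK over WW in teal, with bars at the mean of 3 pairs. C1qtnf3 is shown at 144 h only, and the KK over WW ratios of Bhlhe41 and Ptgds are below 0 at 96 h and above 0 at 120 and 144 h.

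Other genes of the circadian clock were counted from a list of 22 that leaves out Bhlhe41. Comparing KF with WF, 5 of 22 rose and 0 fell at 96 h, 5 of 21 tested rose and 0 fell at 120 h, and 8 of 22 rose and 1 fell at 144 h. These are 22.7%, 23.8% and 40.9% of those tested, beside 3.93%, 5.95% and 25.5% of all genes. Their median log2 difference was 0.17, 0.18 and 0.21, beside 0.00, -0.01 and -0.03 over all genes. With the replicate block 10 rose at 96 h, where 20.9% of all genes were then called, and without replicate 1 or 2 none of them passed, when 0 and 24 of all genes did. At 120 h 2 of them passed without replicate 1 and 2 without replicate 3. The calls at 144 h included the core repressor Per1 (2259 ± 204 against 1274 ± 29.5 normalized counts, log2 0.83 ± 0.07, adjusted p = 1.9e-05), Bhlhe40, the nearest relative of Bhlhe41 (3429 ± 344 against 1580.3 ± 217, log2 1.12 ± 0.10, adjusted p = 2.9e-05), and the nuclear receptor Nr1d1, which represses Arntl (458 ± 50.7 against 221 ± 8.47, log2 1.05 ± 0.12, adjusted p = 0.00011). The gene that fell was Rorb, at 4.01 ± 2.64 against 13.2 ± 5.71 (adjusted p = 0.031).
Between KK and WW, 3 of the 22 clock genes rose and 3 fell at 96 h, 11 of 21 rose and 3 fell at 120 h, and 14 of 22 rose and 2 fell at 144 h. The called share of the list was 27.3%, 66.7% and 72.7%, beside 23.3%, 51.0% and 65.3% of all genes. With the block 12 were called at 96 h, and without replicate 1 there were 2. At 144 h Rora, a nuclear receptor that activates clock genes, was higher in KK (774 ± 52.0 against 369.9 ± 26.7 normalized counts, log2 1.06 ± 0.09, adjusted p = 1.6e-07). The repressor Per3 rose as well (log2 0.77 ± 0.07, adjusted p = 2.75e-07), while Arntl, the partner of Clock in the activating complex, fell (367 ± 14.6 against 804 ± 21.3, log2 -1.13 ± 0.08, adjusted p = 2.8e-08). At 96 h Tef, a transcription factor of the clock output, fell (log2 -0.75 ± 0.05, adjusted p = 4.0e-08), and so did Rora (log2 -0.50 ± 0.09, adjusted p = 0.00093). Rora, like Bhlhe41, was thus lower in KK at 96 h and higher at 144 h.

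The Hes and Hey repressors, the Notch-regulated helix-loop-helix family related to Bhlhe41, had 10 genes in the list, of which 9 were tested at each late time point. In KF against WF 0 of 9 passed at 96 h (1 at an unadjusted p under 0.05, 3 with the block, 0 in DESeq2), 2 rose at 120 h, and 1 rose and 3 fell at 144 h. The called shares of 0%, 22.2% and 44.4% stand beside 3.93%, 5.95% and 25.5% of all genes (20.9% at 96 h with the block). At 120 h Hes7, an oscillator of the segmentation clock, had 1108 ± 59.0 normalized counts in KF and 455 ± 67.2 in WF (log2 1.28 ± 0.13, adjusted p = 0.00027). Hes5 was higher in KF at 120 h (log2 1.11 ± 0.20, adjusted p = 0.0053) and lower at 144 h (log2 -1.32 ± 0.41, adjusted p = 0.032), when Hes6 and Hes3 were lower too (log2 -0.45 ± 0.12 and -0.71 ± 0.24, adjusted p = 0.016 and 0.042). Of the 2 calls at 120 h 1 was left without replicate 1 and 1 without replicate 3, and of the 4 at 144 h 2 were left without replicate 2 and 1 without replicate 3. Of the same 9, 2 fell in KK against WW at 96 h (5 called with the block), 7 rose at 120 h and 8 rose at 144 h. These are 22.2%, 77.8% and 88.9% of the 9, beside the same 23.3%, 51.0% and 65.3% of all genes, and without replicate 1 none was called at 96 h. Hes7 reached 2464 ± 233 in KK against 321 ± 58.2 in WW at 120 h (log2 2.94 ± 0.13, adjusted p = 7.8e-10), and Hey1 3383 ± 266 against 683 ± 51.8 at 144 h (log2 2.31 ± 0.12, adjusted p = 2.2e-09). Hey2 fell at 96 h (log2 -0.91 ± 0.19, adjusted p = 0.0027) and rose at 144 h (log2 1.63 ± 0.15, adjusted p = 4.8e-07), and Heyl fell at 96 h (log2 -0.83 ± 0.18, adjusted p = 0.0030).

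Ptgds was transient. It was at 41.3 to 72.7 normalized counts in the clones, lowest at 72 h, above 100 in every library at 96 h and low again by 144 h. In WF and WW it was already low at 120 h, whereas KF and KK still held 171 or more at 120 h.

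At 96 h Ptgds had 218, 278 and 295 normalized counts in KF and 259, 287 and 289 in WF, and the ranges overlapped. At 120 h it had 171, 309.8 and 172 in KF and 59.9, 62.3 and 48.1 in WF, so every KF library was above every WF library. At 144 h the values were 24.9, 21 and 19 in KF and 3.54, 18.6 and 5.15 in WF. WF replicate 2 at 144 h lay just below the lowest KF library. The KF over WF ratio of means was 0.947, 3.84 and 2.38 at 96, 120 and 144 h, with log2 fold changes of -0.08 ± 0.14, 1.95 ± 0.29 and 1.17 ± 0.50. Ratios of same-numbered libraries at 144 h went from 1.13 to 7.02. These 3 values are descriptions for the reason given above.

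Ptgds did not pass the test in KF against WF at 48 h, with 22.7 ± 0.974 against 14.8 ± 4.33 normalized counts (log2 0.62 ± 0.32, adjusted p = 0.83). At 72 h each library had 3 to 12 counts and the gene was under the count filter. Between the WT clones 0 of 2 tested differences passed, -0.17 ± 0.24 at 0 h (adjusted p = 0.69, 11.1% of genes called) and 0.58 ± 0.33 at 48 h (adjusted p = 0.31, 8.89% called). At 96 h WW had 332, 455 and 357, above all WF libraries, and at 120 h and 144 h WW and WF overlapped, at 69.5 ± 25.3 against 56.8 ± 7.59 and 13.3 ± 7.66 against 9.11 ± 8.29.

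In p53KO-emiRFP against WT-emiRFP cells, Ptgds passed at 3 of the 5 time points at which it was tested, all of them late, where 23.3% of all genes were called at 96 h, 51.0% at 120 h and 65.3% at 144 h. It did not pass at 0 h (67.1 ± 2.02 in K, 58.1 ± 15.6 in W, adjusted p = 0.71) or 48 h (17.6 ± 3.62 in KK, 21.9 ± 8.99 in WW, adjusted p = 0.53). At 96 h KK had 109, 129.9 and 135 normalized counts, a level 3.05 times lower than in WW (log2 -1.61 ± 0.15, adjusted p = 2.3e-06). At 120 h KK had 188, 267 and 186 against 88.3, 79.5 and 40.7 in WW (log2 1.63 ± 0.29, adjusted p = 0.00030), 3.08 times as much. At 144 h KK had 30.1, 35.1 and 21.3 against 7.46, 22 and 10.4, which overlap (log2 1.14 ± 0.47, adjusted p = 0.046). That last call was lost in DESeq2 (adjusted p = 0.060) and without replicate 1 or 3 (0.23 and 0.12). At 96 h KK was thus low and KF near WF, while at 120 h KK and KF, the cells of the same gastruloids, had 214 ± 46.5 and 218 ± 79.7.

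The rise from 72 to 96 h was 5.91 ± 0.35 on the log2 scale in WW (adjusted p = 4.2e-21) and 3.90 ± 0.35 in KK (adjusted p = 4.5e-14), from 17 and 24 counts in all at 72 h to 1197 and 421 at 96 h. The 2 rises differed by -2.004 ± 0.63 (adjusted p = 0.028; the error is approximate at the few counts of 72 h), a call that was lost without replicate 1 or 3 (0.19 and 0.15). From 96 to 120 h Ptgds fell by 2.46 ± 0.24 in WW (adjusted p = 1.1e-12) and rose by 0.78 ± 0.23 in KK (adjusted p = 0.0056, and 0.061 without replicate 1), and these changes differed by 3.24 ± 0.33 (adjusted p = 2.0e-11). From 120 to 144 h it fell in both, -2.40 ± 0.34 in WW (adjusted p = 7.4e-08) and -2.89 ± 0.27 in KK (adjusted p = 1.4e-12), with a difference of -0.48 ± 0.47 (95% interval -1.40 to 0.43, adjusted p = 0.56). The early falls were -1.38 ± 0.32 from 0 to 48 h and -1.80 ± 0.49 from 48 to 72 h in WW (adjusted p = 0.00019 and 0.0015), and -1.91 ± 0.33 and -1.10 ± 0.47 in KK (adjusted p = 1.6e-06 and 0.0496). The second of these in KK was lost with TMM normalization (0.059) and without replicate 1 or 3 (0.15 and 0.19).

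The other enzymes of prostanoid synthesis, from the phospholipase that frees arachidonate to the terminal synthases, made a list of 9. In KF against WF 0 of 9, 0 of 9 and 0 of 8 tested passed at 96, 120 and 144 h, with 0 in DESeq2 as well, while 4, 1 and 1 had an unadjusted p under 0.05, and with the replicate block 3 were called at 96 h, 2 at 120 h and 2 at 144 h. Of all genes 3.93%, 5.95% and 25.5% were called there without the block. With no count filter 1 was called at each time, and without replicate 2 there was 1 at 144 h. In KK against WW 1 rose and 3 fell at 96 h, 2 rose and 3 fell at 120 h, and 2 rose and 5 fell at 144 h, with 2 in all at 96 h without replicate 1. That was 44.4%, 55.6% and 87.5% of the list, beside 23.3%, 51.0% and 65.3% of all genes, so the share at 120 h was near that of all genes. The prostaglandin E synthase Ptges rose at 144 h (1699.7 ± 284 against 610.4 ± 72.5 normalized counts, log2 1.48 ± 0.12, adjusted p = 1.4e-07), and Tbxas1 (thromboxane synthase) and Ptgis (prostacyclin synthase) rose at 120 h (log2 1.73 ± 0.39 and 0.44 ± 0.10, adjusted p = 0.0018 and 0.0025). Ptges2, another prostaglandin E synthase, fell at 144 h (log2 -0.81 ± 0.08, adjusted p = 8.7e-07), as did the cyclooxygenase Ptgs1, which makes the substrate of Ptgds (39.1 ± 2.24 against 106 ± 28.4, log2 -1.44 ± 0.22, adjusted p = 5.2e-05). The phospholipase Pla2g4a fell at 120 h (6.86 ± 3.13 against 34 ± 9.17, log2 -2.30 ± 0.30, adjusted p = 1.9e-05).

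Of 9 prostanoid receptors, 1 of 7 tested rose in KF at 96 h (2 with the block, 0 without replicate 1 or 2), 0 of 8 passed at 120 h (2 at an unadjusted p under 0.05, 0 in DESeq2) and 3 of 8 rose at 144 h. The call at 96 h was also lost with TMM, with only KF and WF in the fit and with all 69 libraries in 1 fit. These are 14.3%, 0% and 37.5% of those tested, beside 3.93%, 5.95% and 25.5% of all genes. Without replicate 1 or 2 none of the 3 at 144 h passed, and without replicate 3 there was 1. They were the thromboxane receptor Tbxa2r (53.2 ± 11.1 against 26.8 ± 3.81 normalized counts, adjusted p = 0.0059), the prostacyclin receptor Ptgir (27.9 ± 7.40 against 13.4 ± 2.10, adjusted p = 0.015) and the prostaglandin E receptor Ptger1 (26.8 ± 0.987 against 15.5 ± 5.39, adjusted p = 0.047). In KK against WW 1 rose and 1 fell at 96 h (4 called with the block), 3 rose and 1 fell at 120 h and 1 rose and 1 fell at 144 h. Without replicate 1 these counts were 1, 2 and 1 in all, without replicate 2 there was 1 at 144 h, and without replicate 3 there were 2 at 120 h. The called shares were 28.6%, 50% and 25%, near or below the 23.3%, 51.0% and 65.3% of all genes. Among them Ptgfr, the receptor of prostaglandin F, rose at 144 h (94.7 ± 8.35 against 11.8 ± 4.50, log2 3.01 ± 0.29, adjusted p = 5.8e-07) and Ptgir rose at 96 h (log2 1.82 ± 0.20, adjusted p = 1.7e-05). Tbxa2r fell at 96 h and rose at 120 h (log2 -0.77 ± 0.16 and 0.76 ± 0.20, adjusted p = 0.0034 and 0.0054), the order seen for Ptgds, and Ptger2 fell at 120 h (log2 -1.60 ± 0.40, adjusted p = 0.0043).
Of 6 genes of prostanoid breakdown and transport, 0 passed in KF at 96 h (1 at an unadjusted p under 0.05, 2 with the block) and 120 h (0 at an unadjusted p under 0.05, 1 with the block), with 0 in DESeq2 at both, and at 144 h Slco2a1, which takes prostaglandins up, rose (164 ± 45.0 against 81.0 ± 29.7, log2 0.99 ± 0.27, adjusted p = 0.017) and Hpgd, which inactivates them, fell (49.8 ± 9.03 against 107 ± 4.35, log2 -1.10 ± 0.19, adjusted p = 0.0013). These are 0%, 0% and 33.3% of the 6, beside 3.93%, 5.95% and 25.5% of all genes. Against WW, KK had 1 that was lower and 0 that were higher at 96 h, then 4 and 1 at 120 h, and 4 and 0 at 144 h. Without replicate 1 there were 0 in all at 96 h and 3 at 120 h, and in KF 1 at 144 h. The called shares of 16.7%, 83.3% and 66.7% stand beside 23.3%, 51.0% and 65.3% of all genes. These included the exporter Abcc4 (1181 ± 45.4 against 3306 ± 214 at 120 h, log2 -1.49 ± 0.07, adjusted p = 1.5e-09), Ptgr1 (log2 -1.25 ± 0.08 at 144 h, adjusted p = 1.6e-08) and Slco2a1 (log2 -2.23 ± 0.32 at 144 h, adjusted p = 2.8e-05). Of 16 other lipocalins, 15 were in the table and 5 could be tested at each late time point. In KF Apom was the 1 that passed, at 144 h (log2 0.71 ± 0.24, adjusted p = 0.045; 2 with the block), and it did not pass without replicate 1 or 2 or with only KF and WF in the fit. That is 20% of the 5, below the 25.5% of all genes called in KF at 144 h. Of the 5, 1 was called in KK at 96 h (0 without replicate 1 or 2), 3 at 120 h and 2 at 144 h, which is 20%, 60% and 40%, near or below the 23.3%, 51.0% and 65.3% of all genes. The retinol carrier Rbp4 rose at 120 h (log2 1.04 ± 0.17, adjusted p = 0.00014), C8g rose at 144 h (log2 0.50 ± 0.13, adjusted p = 0.0031) and Apod fell at 144 h (log2 -2.24 ± 0.25, adjusted p = 2.8e-06).

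C1qtnf3 was close to absent until the last day. No library before 120 h had more than 3 counts, so that levels there could not be told from a few stray reads, and the largest count at 120 h was 12. At 144 h it was abundant in WT cells beside WT cells and 10.8 times lower in means in WT-mCherry cells beside p53KO cells, with p53KO-emiRFP cells at a similarly low level.

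At 144 h C1qtnf3 had 582, 304 and 1022 normalized counts in WF, 260.3, 114 and 312 in WW, 49.7, 44.0 and 82.4 in KF and 45.6, 45.1 and 68.9 in KK. Every library of gastruloids that held p53KO cells was below every library of WT + WT gastruloids. WF and WW overlapped, since WW replicate 3 was above WF replicate 2. WF over KF was 10.8 in means, a log2 fold change of KF against WF of -3.41 ± 0.45, and ratios of same-numbered libraries were 0.0806 to 0.145, which are descriptions. WW against WF gave -1.46 ± 0.40, also without a test because WF belongs to the contrast of the choice. KK against WW, from the same gastruloids but not used by the choice, passed (log2 -2.11 ± 0.46, adjusted p = 0.0011, beside 65.3% of all genes called), and WW was 4.30 times as high, with KK lower in 3 of 3 same-numbered pairs.
At 120 h the counts were 3, 4 and 12 in WF, 4, 4 and 6 in WW, 0, 1 and 1 in KF and 1, 1 and 3 in KK. These counts left the gene under the filter of the comparisons within 120 h.
Over time C1qtnf3 is given by its counts without a test, since it entered the fit of all libraries through its high groups at 144 h. From 120 to 144 h it went from 14 to 747 counts in all in WW and from 5 to 169 in KK. By counting error alone the ratios were 51.8 (exact 95% interval 30.7 to 95.3) in WW and 32.6 (13.7 to 102) in KK, and these intervals overlap. From 96 to 120 h WW went from 1 to 14 counts, a ratio of 14.3 with an exact 95% interval of 2.17 to 603.

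The relatives of C1qtnf3 were counted from a list of 20 genes with a C1q-like head, of which 7, 10 and 11 were tested at 96, 120 and 144 h. In KF against WF 1 rose at 96 h, 1 rose and 1 fell at 120 h and 1 fell at 144 h (3 called with the block). These are 14.3%, 20% and 9.09% of those tested, beside 3.93%, 5.95% and 25.5% of all genes, so the share at 144 h was below that of all genes. At 96 h none of them passed with any 1 replicate left out. The last was C1qtnf7, at 1.75 ± 1.53 against 30 ± 15.4 normalized counts (log2 -3.97 ± 0.63, adjusted p = 0.00075). At 120 h the synapse organizer Cbln2 rose (49.7 ± 4.31 against 23.1 ± 12.1, adjusted p = 0.034) and C1ql4 fell (47.0 ± 9.88 against 87.7 ± 24.6, adjusted p = 0.041), of which 0 passed without replicate 1, 1 without replicate 2, 0 without replicate 3 and 0 with only KF and WF in the fit. Among KK and WW 2 rose and 2 fell at 96 h, 3 rose and 2 fell at 120 h and 5 rose and 3 fell at 144 h, with 2 in all at 96 h and 3 at 120 h without replicate 1. The called shares were 57.1%, 50% and 72.7%, beside 23.3%, 51.0% and 65.3% of all genes, which is near the list at 120 and 144 h. At 144 h Cbln4 (55.1 ± 8.77 against 6.01 ± 0.696, log2 3.18 ± 0.27, adjusted p = 1.75e-07), C1ql1 (log2 0.97 ± 0.15, adjusted p = 4.9e-05) and C1qtnf1 (log2 1.97 ± 0.31, adjusted p = 7.7e-05) rose, the opposite of C1qtnf3, and Cbln1 (log2 -1.01 ± 0.18, adjusted p = 0.00019) and C1ql4 (log2 -0.99 ± 0.21, adjusted p = 0.00087) fell. Cbln2 fell at 96 h (9.69 ± 2.46 against 48.1 ± 4.51, log2 -2.30 ± 0.23, adjusted p = 6.3e-06).
Of the adiponectin receptors Adipor1, Adipor2 and Cdh13, Cdh13 rose in KF at 120 h (191 ± 12.8 against 119.9 ± 24.2, log2 0.67 ± 0.17, adjusted p = 0.034) and at 144 h (83.3 ± 5.33 against 50.2 ± 3.99, log2 0.73 ± 0.16, adjusted p = 0.0050). The first call was lost with any 1 replicate left out and the second without replicate 1 or 2. In KK it rose at 120 h (log2 0.98 ± 0.17, adjusted p = 0.00029) and at 144 h (170.1 ± 15.6 against 34.6 ± 6.15, log2 2.30 ± 0.16, adjusted p = 2.9e-08). Adipor1 and Adipor2 were abundant and fell slightly in KK at 144 h (log2 -0.30 ± 0.05 and -0.23 ± 0.04, adjusted p = 0.00019 and 0.00036), and Adipor2 was slightly higher in KK at 96 h (log2 0.16 ± 0.05, adjusted p = 0.026), a call lost without replicate 1 or 2.

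Ordered over the 23 groups, Bhlhe41 was highest in KF at 72 h (992 ± 95.9 normalized counts), above all libraries of the next group, WF at 72 h (709 ± 104). From there down to WW at 120 h (172 ± 22) the ranges of neighbours in the order overlapped at each of 14 steps. Below a gap came KK at 96 h, WF at 120 h, WW at 144 h and WF at 144 h, and below another gap clone K, then F and W, which overlapped. For Ptgds the top was WW at 96 h (381 ± 65.0), above WF at 96 h. WF and KF at 96 h and KF and KK at 120 h followed with overlapping ranges, then KK at 96 h alone (125 ± 13.8). For C1qtnf3 WF and WW at 144 h overlapped, as did KF and KK at 144 h below them, and all other groups had 19 counts or fewer in all.
Per kilobase of merged exons the highest level was 249 ± 142 for C1qtnf3 in WF at 144 h, 231 ± 39.4 for Ptgds in WW at 96 h and 148 ± 14.3 for Bhlhe41 in KF at 72 h, in normalized counts per kilobase.

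**Figure D3:**
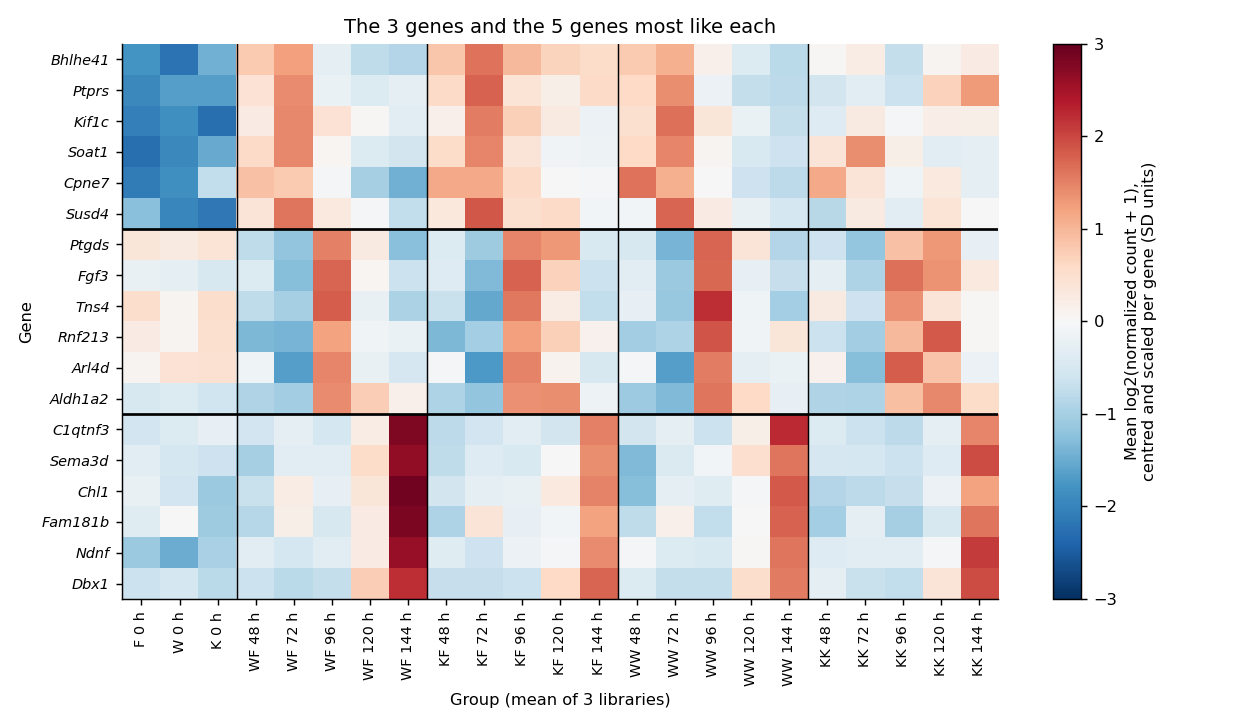
Mean log2(normalized count + 1) in each of the 23 groups (3 libraries each), centred and scaled per gene, for the 3 genes and the 5 genes most like each. Red marks groups above the mean of the gene and blue groups below it, with vertical lines between the clones at 0 h, WF, KF, WW and KK.

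The genes with the most similar pattern were taken by Pearson's r of mean log2(normalized count + 1) over the 23 groups, among 14078 genes with a mean of at least 50 normalized counts. For Bhlhe41 they were Ptprs (r = 0.906), Kif1c (0.885), Soat1 (0.882), Cpne7 (0.881) and Susd4 (0.876). For Ptgds they were Fgf3 (0.904), Tns4 (0.888), Rnf213 (0.861), Arl4d (0.856) and Aldh1a2 (0.854), the last an enzyme of retinoic acid synthesis. For C1qtnf3 they were Sema3d (0.939), Chl1 (0.925), Fam181b (0.920), Ndnf (0.908) and Dbx1 (0.904), all highest in WF at 144 h. The groups share time points, gastruloids and normalization, and for C1qtnf3 the coefficient rests on the 4 groups of 144 h. By rank correlation 1 of the 5 genes of Bhlhe41, 4 of those of Ptgds and 0 of those of C1qtnf3 stayed among the first 5.

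The 2 nearest protein-coding genes on either side were examined as well. Of these, Itpr2, 242740 bases from Bhlhe41 and coding for an intracellular calcium channel, rose in KF against WF at 96, 120 and 144 h (log2 0.46 ± 0.09, 0.60 ± 0.11 and 0.39 ± 0.12, adjusted p = 0.017, 0.0080 and 0.025), while Sspn, Rassf8 and Tuba3b did not pass there. In KK against WW Itpr2 rose at 120 and 144 h (log2 1.11 ± 0.11 and 1.44 ± 0.12, adjusted p = 2.1e-06 and 1.3e-07), and so did Rassf8 (log2 0.54 ± 0.10 and 0.45 ± 0.07, adjusted p = 0.00051 and 5.4e-05), while Tuba3b fell (log2 -3.05 ± 0.50 and -2.74 ± 0.23, adjusted p = 0.00015 and 1.45e-07) and Sspn did not pass. Of the genes next to Ptgds, the DNA repair factor gene Paxx rose in KF at 120 h (log2 0.47 ± 0.12, adjusted p = 0.041) and in KK at 120 and 144 h (log2 0.36 ± 0.12 and 0.82 ± 0.17, adjusted p = 0.027 and 0.00068), Clic3 did not pass and Lcn12 was under the filter. C8g, the farther one, passed in KK only, at 120 h (log2 0.34 ± 0.13, adjusted p = 0.037) and at 144 h. Next to C1qtnf3, Rai14 fell slightly at 144 h in KF and KK (log2 -0.20 ± 0.06 and -0.23 ± 0.06, adjusted p = 0.025 and 0.0038) and in KK at 120 h (log2 -0.24 ± 0.05, adjusted p = 0.0024), Amacr fell in KK at 120 and 144 h (log2 -0.29 ± 0.08 and -0.34 ± 0.11, adjusted p = 0.010 and 0.015), and Ttc23l and Slc45a2 were under the filter.

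Markers of cell types moved in the same comparisons. Of the paraxial mesoderm markers, 5 of 7 tested fell in KK at 96 h, 5 of 8 rose at 120 h and 8 of 8 rose at 144 h, the directions of Bhlhe41 and Ptgds. The called shares were 71.4%, 62.5% and 100%, beside 23.3%, 51.0% and 65.3% of all genes. Their summed level was 10234 to 14199 normalized counts in KK and 20085 to 24439 in WW at 96 h, and 25182 to 34932 against 13672 to 18618 at 120 h. In KF against WF 0 of 7 (3 lower with the block), 3 of 8 and 4 of 8 of them rose at 96, 120 and 144 h, beside 3.93%, 5.95% and 25.5% of all genes called. Their sums were 21075 to 27631 in KF and 15393 to 20815 in WF at 120 h. At 144 h their sums overlapped, at 4691 to 10072.5 in KF and 6347 to 8868 in WF. At 144 h, when C1qtnf3 was lower in KF, 6 of 8 neural markers fell in KF (sums of 13898 to 17213 against 18285 to 20294), and 3 of 7 neural crest and mesenchyme markers fell (1921 to 2768 against 3312 to 4182; 5 fell with the block), where 25.5% of all genes were called. In KF at 144 h 4 of 8 endoderm markers rose (6 with the block), 4 of 6 primordial germ cell markers rose and 1 fell, and 1 of 8 haematoendothelial markers rose and 3 fell. At 96 h 2 of 6 primordial germ cell markers fell in KF, and 2 of 6 neural crest and mesenchyme and 1 of 8 endoderm markers rose (3.93% of all genes called). At 120 h 2 of 6 primordial germ cell and 3 of 8 haematoendothelial markers fell, and 1 of 8 neural markers rose and 1 fell (5.95% called). At 144 h, KK against WW, 4 of 7 neural crest and mesenchyme markers rose and 2 fell (5852 to 7417 against 1798 to 2128), while C1qtnf3 was lower in KK. Of the neural markers 4 of 8 rose and 1 fell there, though their summed level was lower in KK (13605 to 15432 against 16685 to 19559). Primordial germ cell markers fell in KK in 6 of 6 at 120 h and 6 of 6 at 144 h (3467 to 4133 against 13297.5 to 14073 at 144 h), and haematoendothelial markers in 6 of 8 and 5 of 8 (1802 to 2267.5 against 7706 to 7772). Foxd3 was at 0 counts in all libraries of every population at 96 to 144 h except WW at 144 h, and no other marker of these lists was at 0 throughout a population at these times. Of 8 naive pluripotency markers, 7 fell in KK at 96 h, 8 at 120 h and 8 at 144 h, and 0 rose, beside 23.3%, 51.0% and 65.3% of all genes called. In KF 3 fell at 96 h and 2 at 120 h (6 at each time with the block), and at 144 h 0 passed (5 rose with the block, 3 at an unadjusted p under 0.05). Of all genes 3.93%, 5.95% and 25.5% were called in KF at these times, and 20.9%, 20.3% and 37.2% with the block. The part of these markers in the results was not tested.

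RNA of emiRFP cells in the mCherry libraries was followed with H2bc14, an H2B gene that had 9940.5 ± 582 normalized counts in clone W and 7.24 ± 1.01 in clone F. In KF libraries it reached 1.48% to 3.57% of the level in the same-numbered KK library at 96 h, 3.01% to 7.46% at 120 h and 2.39% to 16.9% at 144 h. In WF libraries it was 0.391% to 1.20%, 1.16% to 2.11% and 0.191% to 2.12% of WW. At 120 h these shares of KK RNA would carry 9.56 to 16.8 normalized counts of Bhlhe41 and 8.04 to 14 of Ptgds into a KF library, beside KF means of 435 and 218. At 144 h they would carry 6.54 to 59.4 of Bhlhe41, beside a KF mean of 391. A second H2B gene, H2bc21, which had 588 ± 83.2 normalized counts in clone W and 18.3 ± 10.3 in clone F, gave larger shares in both, 11.0% to 29.1% in KF and 5.65% to 9.59% in WF at 120 h, and 7.61% to 23.7% in KF and 3.65% to 10.9% in WF at 144 h. By these shares a KF library would hold 31.7 to 69.99 normalized counts of Bhlhe41 and 26.5 to 53.95 of Ptgds from KK RNA at 120 h, and 20.8 to 82.7 of Bhlhe41 at 144 h. When emiRFP RNA estimated from H2bc14 was subtracted, KF over WF of Bhlhe41 was 1.62, 1.81 and 1.80 (log2) at 96, 120 and 144 h, that of Ptgds -0.05, 1.94 and 1.22, and that of C1qtnf3 at 144 h -3.43. With H2bc21 the values of Bhlhe41 were 1.71, 1.94 and 1.84, those of Ptgds 0.01, 1.961 and 1.23, and that of C1qtnf3 -3.49.

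**Figure D4:**
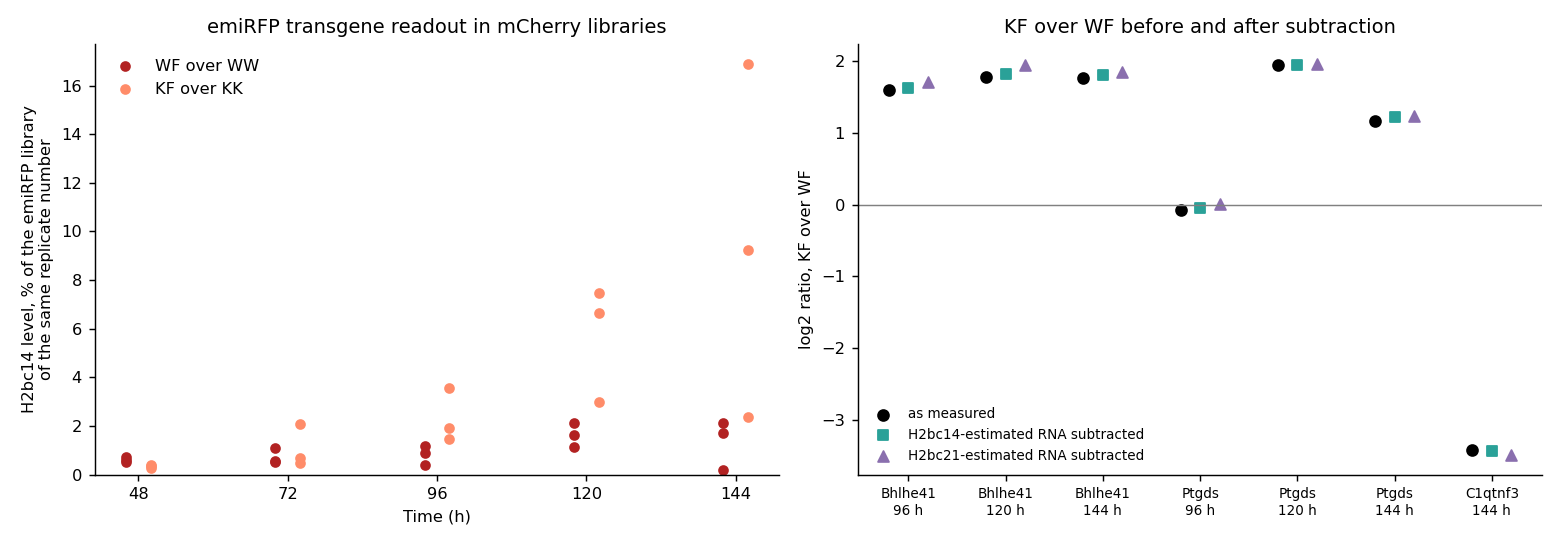
Left, level of H2bc14 in each mCherry library as a percentage of the emiRFP library of the same replicate number, against time (h). Right, log2 ratio of KF over WF for each gene at 96 to 144 h as measured and after subtraction of emiRFP RNA estimated from H2bc14 or H2bc21. The H2bc14 share was at most 16.9% in KF and 2.12% in WF, and the signs of the ratios of Bhlhe41 at each time and of Ptgds at 120 and 144 h were those as measured.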

How the data were processed

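The authors sorted the cells, made stranded libraries of polyA RNA, trimmed reads with Trim Galore 0.6.7, aligned them with STAR 2.7.11b to GRCm38.p6 and deposited raw counts of uniquely mapped reads per gene symbol. The strand setting of the counts is not given in the sources used here. All 69 columns were used.

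The 3 genes and all gene lists were chosen with earlier results of these data known. Counts were fitted with edgeR 4.0.16 (R 4.3.3, glmQLFit and glmQLFTest) after filterByExpr by group, with 12 libraries in a time point fit (9 at 0 h) and 23 group means in the fit of all 69. Standard errors are the log2 fold change divided by the square root of F, which is approximate at low counts, and intervals are 1.96 standard errors wide on either side. List genes named are up to 3 with the smallest adjusted p in each direction over 96 to 144 h, and 1 gene that this rule names is not reported here. The replicates come from separate experiments per the paper, so p-values measure the spread between these. Replicate numbers come from the labels. Over genes, residuals about the group mean correlated between same-numbered libraries at 0.0717 to 0.626, above 0.1 in 32 of 33 pairs (KF and WF of replicate 1 at 120 h were below), so the numbers were taken to pair the libraries except there. The main fits held group means only and did not use this pairing, which entered the fits only as the replicate block. Positions and exon lengths come from an earlier Gencode release than the one the authors counted with, both on GRCm38, so spans and levels per kilobase could differ slightly, and promoters come from RefSeq (GRCm38.p6). Alternatives were TMM, no count filter, the replicate block, other libraries in the fit, DESeq2 1.42.0, each replicate left out, and subtraction of emiRFP RNA. The steps were tested on simulated data, where edgeR called 98.5% of 200 genes changed 2-fold between KK and WW at 120 h, with 4.37% of calls on unchanged genes. DESeq2 called 100% of them, with 15.3% of calls on unchanged genes, and called 9 genes when none was changed. The changed genes were drawn from those with a mean over 100 normalized counts, and no difference between experiments was simulated. These rates thus do not cover genes at low counts, such as C1qtnf3 at 120 h.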

Additional observations from a re-analysis of the deposited data

Results flagged for a closer look

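Differences of changes were tested only for the steps from 72 h on. The change of Bhlhe41 from 96 to 120 h differed between p53KO-emiRFP and WT-emiRFP cells by 1.68 ± 0.28 on the log2 scale (edgeR quasi-likelihood test of the interaction, adjusted p = 4.1e-06). That of Ptgds differed by -2.004 ± 0.63 from 72 to 96 h (adjusted p = 0.028) and by 3.24 ± 0.33 from 96 to 120 h (adjusted p = 2.0e-11). The first of these 2 rests on 17 and 24 counts in all at 72 h in WW and KK, and its call was lost without replicate 1 or 3. In the step from 96 to 120 h both genes fell in WT-emiRFP and rose in p53KO-emiRFP cells.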

How the results depend on the processing

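No called value of the 3 genes changed sign under any alternative run, and Ptgds in KF against WF at 96 h, near 0, went from -0.08 to 0.01 by subtraction with H2bc21. The replicate block raised Bhlhe41 in KF against WF at 72 h past the threshold (log2 0.49, adjusted p = 0.029), as did no count filter (0.48, 0.00018) and DESeq2 (0.48, 0.0077), and the pairing changed no other call of the 3 genes. KK against WW lost its call for Bhlhe41 at 0 h with only both groups in the fit (0.95, adjusted p = 0.065) and for Ptgds at 144 h in DESeq2 (1.13, 0.060). Subtraction by H2bc21 raised Bhlhe41 in KF against WF at 96, 120 and 144 h, to 1.84 at the last of these. With 1 replicate left out, Bhlhe41 in KK against WW was 0.79 to 1.299 at 0 h, -1.19 to -1.01 at 96 h and 0.54 to 0.63 at 120 h, and in KF against WF at 72 h 0.35 to 0.67, and Ptgds in KK against WW at 144 h was 0.82 to 1.51. Among changes over time, with no count filter Bhlhe41 passed in WW from 48 to 72 h (0.33, adjusted p = 0.040), in WW from 120 to 144 h (-0.47, 0.012; also without replicate 1, 0.021) and in the difference of changes from 120 to 144 h (0.69, 0.011). The number of genes called over the 27 comparisons moved by over 1.5 times in 10 with the block, 4 with no filter, 3 with DESeq2 and 0 with TMM, and in 13, 15 and 8 without replicate 1, 2 and 3. In KF against WF at 96 h it was 720, and 3830 with the block, 1507 with no filter, 1139 in DESeq2, 275 with both groups alone, and 0 and 24 without replicate 1 and 2. At 120 h, where the numbers were not taken to pair, it was 1123, and 3826 with the block, with 13 of 21 clock genes and 5 of 9 Hes and Hey genes. The cause was not tested. C1qtnf3 before 144 h and Ptgds at 72 h were under the count filter in the comparisons within a time point, and changes over time that start or end there rest on few counts.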
